A study of Mus with 4 samples.

Results

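Lipopolysaccharide (LPS), a component of the outer membrane of Gram-negative bacteria, is recognised by the receptor TLR4, which works together with MD-2, the product of Ly96, and is loaded with LPS by CD14. Inside the cell the receptor uses a pair of adaptors, MyD88 and TRIF (the product of Ticam1). MyD88 leads to the early activation of NF-kB, a family of transcription factors held in the cytoplasm by inhibitors such as IκBα, and TRIF leads to interferon-beta and to a later phase of NF-kB activation. NF-kB in turn induces genes that shut the pathway down, among them Nfkbia, which encodes IκBα, and Tnfaip3, which encodes A20. In the kidney, Lcn2 (NGAL) and Havcr1 (KIM-1) are used as markers of tubular injury.

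The genes described here are 10 that belong to this system, chosen by symbol in the gene annotation of the array and not by their values: Cd14, Ly96, Tlr4, Myd88, Ticam1, Nfkb1, Nfkbia, Tnfaip3, Lcn2 and Havcr1. They are 10 of 26893 named genes on the array and are read by 17 of its 56605 probes. The cells were an immortalized murine podocyte cell line differentiated under nonpermissive conditions, which means that cells of a single line stand for podocytes. They received for 24 h a lentivirus for Venus, a fluorescent protein used as control (2 samples), or one for the active, N-terminal form of OASIS, a transcription factor encoded by Creb3l1 (2 samples), with polybrene in the infection medium. Total RNA was taken 48 h after the virus was added, and 1 Agilent array, read in 1 colour, was used per sample. The labels of these samples name no LPS, and the comparison asks whether OASIS overexpression by itself altered the transcripts through which podocytes sense LPS.

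Values are log2 intensities from which the 75th percentile of the same array was subtracted, so that 0 is the level of that percentile, and log2 fold changes are OASIS minus Venus. Levels of different probes are not compared, since probes differ in how well they bind. A probe was called past the threshold at a fold change over 2.0 or under 0.5 together with an adjusted p under 0.1 from limma (Benjamini-Hochberg over 31598 probes tested), and only such probes are said to have risen or fallen. The labels do not say whether the replicates were separate cultures, so the p-values measure the spread between these samples, which may be technical. With 2 arrays in each group, the smallest two-sided p of an exact permutation test is 0.333. All 4 arrays lay on 1 slide. Among the podocyte markers, Tcf21 and Ptpro were not well above background on any array, while 10 of the 14 markers on the list were measured on all 4. Of these, Wt1 and Cd2ap rose with OASIS (log2 fold changes 4.62 and 1.09, limma adjusted p = 0.00215 and 0.00832) and none fell. Over all genes tested, 6.21% rose and 1.85% fell. In RNA from whole cultures, fewer cells that express a gene and less RNA per cell cannot be told apart.

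Ticam1, the gene of the adaptor TRIF, rose with OASIS, and it was the only one of the 10 genes to pass the threshold. Most of the others, including the receptor genes Cd14 and Tlr4 and the NF-kB genes Nfkb1 and Tnfaip3, were lower on both OASIS arrays by less than 2-fold. Lcn2 showed no difference that passed the test, and Havcr1 was too dim to be tested. Of the 17 probes, 16 could be tested and were well above background on all 4 arrays, so that none entered the test through 1 group alone. The only probe past the threshold was that of Ticam1, where 8.36% of all probes tested passed in either direction 5.89% as higher and 2.47% as lower. By the brightest probe, 9 genes were tested and 1 passed, where 8.06% of all genes did.

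**Figure D1:**
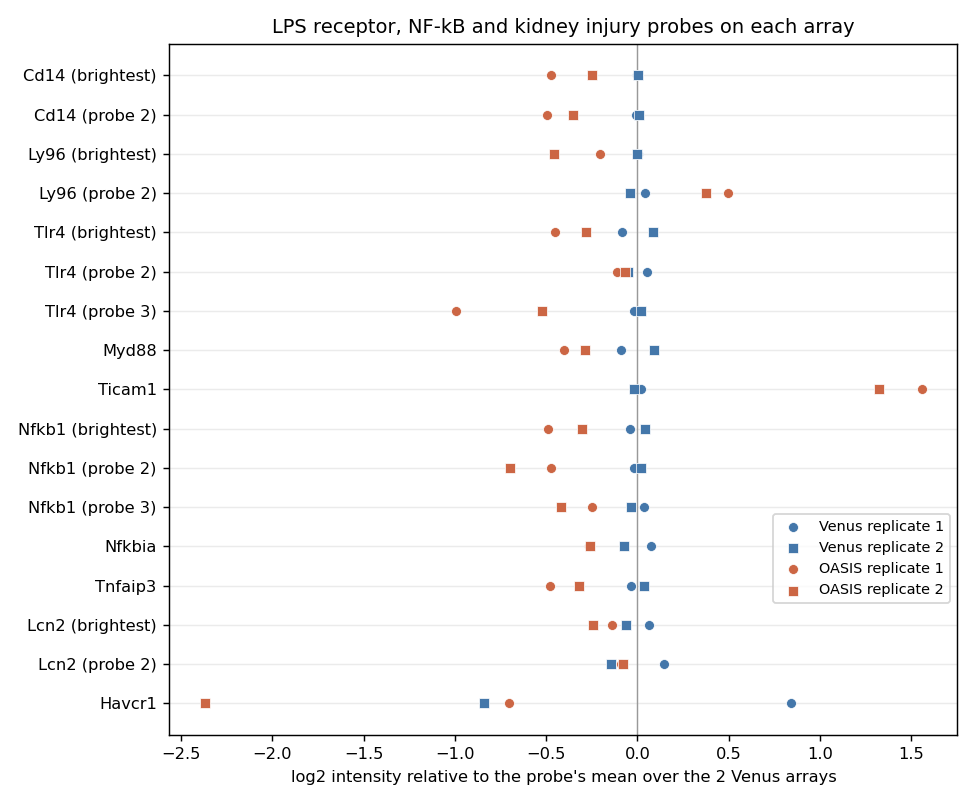
Each row is 1 probe of the 10 genes and each point 1 array (blue Venus, orange OASIS, circle replicate 1, square replicate 2), placed at its log2 intensity minus the mean of the probe over the Venus arrays. The OASIS points of Ticam1 lie far to the right of the Venus points, those of most other probes lie to the left by less than 1 log2 unit, and the 4 points of Havcr1 are widely scattered.

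By the adjusted p alone, without the limit on the fold, 9 of the 16 probes differed, 2 higher and 7 lower, where 36.7% of all probes did so, 17% higher and 19.7% lower. The 2 OASIS arrays lay below the 2 Venus arrays for 13 of the 16 probes and above them for 2, so that 15 did not overlap. Over all probes tested, the shares were 39.4%, 28.6% and 68%. The log2 fold change was under 0 for 14 of the 16 probes, against 57.5% of all probes. By gene, 5 of 9 had an adjusted p under 0.1, where 36.8% of all genes did. The 9 genes all lay apart between the groups, 8 lower and 1 higher, where 70.9% of all genes lay apart, 39.4% lower and 31.5% higher, and 56.1% of all genes had a log2 fold change under 0. The median log2 fold change of the 16 probes was -0.34, that of all probes tested -0.07. These are descriptions of a small and chosen set of genes. The count of 9 fell to 1 without Venus replicate 1, to 1 without Venus replicate 2 and to 5 without OASIS replicate 1, and several of its adjusted p-values lay just under the limit.

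**Figure D2:**
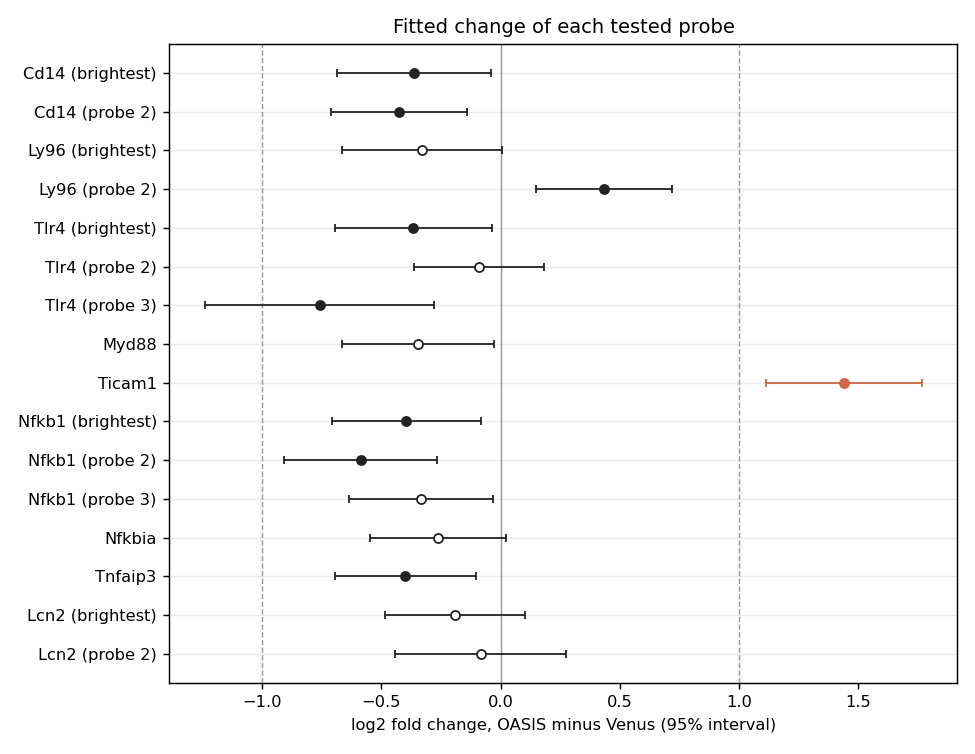
Fitted log2 fold change of each tested probe with its 95% interval from limma, dashed lines at a 2-fold change. Ticam1 (orange) is the only probe beyond a dashed line, filled black points are probes with an adjusted p under 0.1 and a smaller fold, and open points have a higher adjusted p.

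CD14 binds LPS at the cell surface and passes it on to the receptor complex. Its gene lies on chromosome 18 in band qB2 and is read by a pair of probes annotated to the same transcript. By the brighter probe, Cd14 stood at 1.39 and 1.39 with Venus and at 0.91 and 1.14 with OASIS, a log2 fold change of -0.36 (standard error, SE, of 0.12, adjusted p = 0.0956 by limma). By the other probe, the values were 0.95 and 0.97 with Venus and 0.46 and 0.60 with OASIS, a log2 fold change of -0.43 (SE 0.11, limma adjusted p = 0.0522). On both probes the groups did not overlap and the lower of the OASIS arrays was replicate 1.

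Ly96, on chromosome 1 in band qA3, encodes MD-2, the subunit that holds the lipid part of LPS. Its 2 probes, annotated to different RefSeq transcripts of the gene, had differences of opposite sign, neither past the threshold. The brighter probe had 3.49 and 3.49 with Venus and 3.28 and 3.03 with OASIS, a log2 fold change of -0.33 (SE 0.13) that missed the limit on p (limma adjusted p = 0.126). The dimmer probe had -1.76 and -1.85 with Venus and -1.31 and -1.43 with OASIS, and was 1.35-fold higher (log2 fold change 0.43, SE 0.11, limma adjusted p = 0.05). Taken within each array, which removes the scaling of the arrays, the dimmer probe minus the brighter one was -5.25 and -5.34 with Venus and -4.6 and -4.46 with OASIS. The difference between the probes thus shifted by 0.77 log2 units, without overlap between groups (exact permutation p = 0.333, the smallest this design allows). The direction of each probe was the same under all alternatives tried.

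Tlr4 itself, on chromosome 4 in band qC1, has 3 probes, and all 3 were lower with OASIS. The brightest stood at -0.63 and -0.46 with Venus and at -0.99 and -0.82 with OASIS (log2 fold change -0.37, SE 0.12, limma adjusted p = 0.0984). The second, annotated to an Ensembl transcript, had -1.08 and -1.19 with Venus and -1.24 and -1.21 with OASIS, groups only 0.02 apart (log2 fold change -0.09, limma adjusted p = 0.562). Its spot is marked for an uneven or outlying background on 3 arrays. The dimmest, annotated to the same RefSeq transcript as the brightest, had -4.74 and -4.70 with Venus and -5.72 and -5.25 with OASIS, a log2 fold change of -0.76 (SE 0.18, limma adjusted p = 0.0468). This last value rests on corrected intensities between 18.2 and 37.9 and became -0.21 after normexp background correction. The size of the Tlr4 difference therefore depended on the probe, from 1.06-fold to 1.69-fold lower.

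MyD88 and TRIF carry the signal on from the receptor. Myd88, on chromosome 9 in band qF3, had 2.02 and 2.21 with Venus and 1.71 and 1.83 with OASIS. Its difference of -0.35 log2 units (SE 0.12) lay just beyond the limit on p (limma adjusted p = 0.104), although the groups did not overlap. Ticam1, on chromosome 17 in band qD, had -0.74 and -0.78 with Venus and 0.80 and 0.56 with OASIS. It rose 2.71-fold, a log2 fold change of 1.44 (SE 0.12, 95% interval 1.11 to 1.77, limma adjusted p = 0.00645), and the nearest arrays of the 2 groups were 1.30 log2 units apart. Only 3.97% of all probes tested had a larger change in either direction. The corrected intensities behind it were 554 and 575 with Venus and 1659 and 1431 with OASIS, far from the background of 30 to 43 at the spots of these genes. Its log2 fold change lay between 1.32 and 1.56 under 16 alternatives. It passed the threshold under 15 of them and missed it with the methods' t-test (adjusted p = 0.100). Ticam1 has a single probe, so that no other probe can be set beside this value.

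Nfkb1 encodes p105, the precursor of the NF-kB subunit p50. The gene lies on chromosome 3 in band qG3 and its 3 probes were all lower with OASIS. The brightest had 3.39 and 3.47 with Venus and 2.94 and 3.13 with OASIS (log2 fold change -0.39, SE 0.12, limma adjusted p = 0.0747). The second had 0.06 and 0.10 with Venus and -0.40 and -0.62 with OASIS, the largest difference of the 3 (log2 fold change -0.59, SE 0.12, limma adjusted p = 0.0339). The third stood at -2.98 and -3.05 with Venus and at -3.26 and -3.43 with OASIS (log2 fold change -0.33, SE 0.11, limma adjusted p = 0.101), and its spot is marked for an uneven background on 3 arrays. Whereas the Ly96 probes disagreed in direction, those of Nfkb1 gave reductions of 1.26-fold to 1.5-fold, none past the 2-fold limit.

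Both feedback inhibitors had lower values on the OASIS arrays, and neither passed the threshold. Nfkbia, on chromosome 12 in band qC1, had 3.98 and 3.84 with Venus and 3.65 and 3.65 with OASIS (log2 fold change -0.26, SE 0.11, limma adjusted p = 0.144). Tnfaip3, on chromosome 10 in band qA3, had 4.52 and 4.6 with Venus and 4.08 and 4.24 with OASIS (log2 fold change -0.40, SE 0.11, limma adjusted p = 0.0660). The Tnfaip3 spot carries a mark for an uneven or outlying background on all 4 arrays. Its corrected intensity was 16212 to 23960, and it was kept, since the mark is on the background and not on the spot. When spots with this mark were left out, Tnfaip3 could not be tested, nor could the marked probes of Tlr4 and Nfkb1.

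Lcn2 encodes neutrophil gelatinase-associated lipocalin, a secreted protein that binds iron-carrying siderophores, and lies on chromosome 2 in band qB. By its brighter probe it had -0.99 and -1.12 with Venus and -1.19 and -1.30 with OASIS, a log2 fold change of -0.19 (95% interval -0.48 to 0.10, limma adjusted p = 0.266). By the dimmer probe it had -3.31 and -3.60 with Venus and -3.54 and -3.53 with OASIS, where the groups overlapped (log2 fold change -0.08, 95% interval -0.44 to 0.27, limma adjusted p = 0.686). Both intervals lie within a 2-fold change in either direction. The dimmer probe changed sign, to 0.06, without Venus replicate 1.

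Havcr1, on chromosome 11 in band qB1.1, encodes a receptor for phosphatidylserine on injured tubular cells. Its 1 probe was measured well above background on a single array, Venus replicate 1, and it was not tested. The values were -5.08 and -6.76 with Venus and -6.62 and -8.29 with OASIS, from corrected intensities of 3.10 to 27.4, and the groups overlapped. At this signal, a difference in Havcr1 was not detectable.

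**Figure D3:**
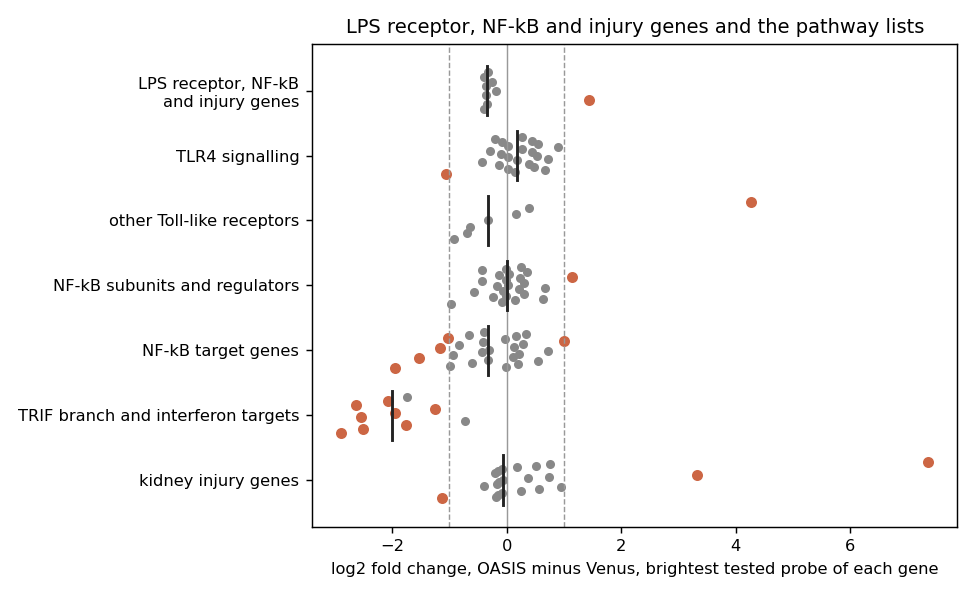
Log2 fold change of each tested gene by its brightest probe, for the LPS receptor, NF-kB and injury genes and for 6 lists of related genes, with the median of each as a black bar, genes past the threshold in orange and dashed lines at 2-fold. Most grey points lie within 1 log2 unit of 0, and the interferon list lies to the left with a median of -2.01. The orange points farthest right include the Toll-like receptor gene Tlr6 and the injury genes Krt20 and Rbp4. Rbp4 was not well above background on the Venus arrays.

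The other genes of TLR4 signalling were read by their brightest tested probe. Of 25 genes on the list, 23 were tested. Ticam2, the bridging adaptor that links TLR4 to TRIF, and Ly86 were not well above background on any array. Traf6, the ubiquitin ligase downstream of MyD88, passed the threshold as lower, where 1.85% of all genes did, and none passed as higher, where 6.21% did. It had 0.05 and 0.08 with Venus and -0.89 and -1.08 with OASIS, a fall by 1.05 on the log2 scale (SE 0.12, limma adjusted p = 0.00913). Its 3 other tested probes gave 0.09, -0.14 and -0.05, and no gene of the list passed without OASIS replicate 2. The median log2 fold change of the list was 0.18, against -0.06 over all genes tested. By the adjusted p alone, 8 of the 23 genes were higher and 2 lower, where 18.6% and 18.1% of all genes were. Traf3, which TRIF recruits on the way to interferon-beta, was higher by both of its probes (log2 fold changes 0.90 and 0.67, limma adjusted p = 0.00991 and 0.0169). Tirap, the sorting adaptor of MyD88, was 1.65-fold higher (limma adjusted p = 0.0340).

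Among 11 other Toll-like receptors, 7 were tested and 1 passed the threshold, where 8.06% of all genes did. This was Tlr6, a partner of TLR2 in the recognition of bacterial lipopeptides. It rose from -4.91 and -5.16 on the Venus arrays to -0.54 and -0.98 with OASIS, a log2 fold change of 4.28 (SE 0.19, limma adjusted p = 0.00215), well above background on all 4 arrays by its single probe. Tlr2 had a log2 fold change of -0.64 (limma adjusted p = 0.0312). Tlr3, a sensor of double-stranded RNA that signals through TRIF, had -0.92 and -0.69 by its 2 probes (limma adjusted p = 0.0374 and 0.0200). Without OASIS replicate 2, 2 genes of this list passed in place of 1.

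Of 24 tested NF-kB subunits, kinases and regulators other than the genes above, 1 passed the threshold by its brightest probe, where 8.06% of all genes did. This was Itch, a ubiquitin ligase that works with A20. Its brightest probe rose by 1.15 on the log2 scale (SE 0.10, limma adjusted p = 0.00640), while its other probes gave 0.01, 0.66 and -0.68. The median over the list was 0.0090. By the adjusted p alone, 7 of the 24 genes differed, 4 higher and 3 lower. Over all genes, 36.8% did, 18.6% higher and 18.1% lower. The groups did not overlap for 10 higher and 7 lower genes, against 31.5% and 39.4% of all genes. Ikbkg, the gene of the regulatory subunit NEMO of the IκB kinase, did not pass by its brightest probe (log2 fold change 0.22, limma adjusted p = 0.299). A dimmer probe rose by 1.09 (limma adjusted p = 0.00886), and another, marked for an uneven or outlying background on all 4 arrays, had 0.90 (limma adjusted p = 0.0199). Rela, the gene of the main activating subunit p65, had a log2 fold change of -0.07 (limma adjusted p = 0.672). Cyld, a deubiquitinase that restrains NF-kB, had probes on both sides, with log2 fold changes of -0.98, -0.50 and 1.25. The count of genes past the threshold was 2 without Venus replicate 2, 2 without OASIS replicate 2 and 0 with the mean of a gene's probes.

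**Figure D4:**
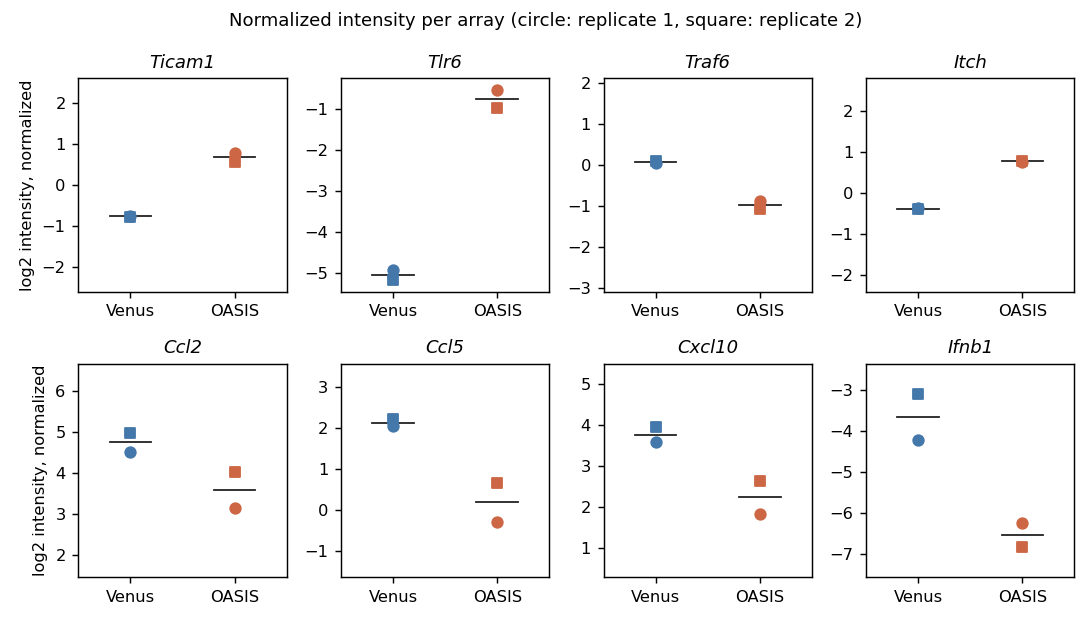
Normalized log2 intensity of 8 genes on each array by the brightest probe (blue Venus, orange OASIS, circle replicate 1, square replicate 2, bar the group mean), with every panel spanning the same range of log2 units. Ticam1, Tlr6 and Itch are higher with OASIS on both arrays, Traf6 is lower, and Ccl2, Ccl5 and Cxcl10 are lower with their OASIS arrays spread apart.

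Of 34 genes that NF-kB is known to induce, 26 were tested. By their fitted values 5 passed the threshold, 4 lower (Ccl2, Ccl5, Cxcl10 and Icam1) and 1 higher (Sod2). Over all genes tested, 8.06% passed, 1.85% as lower and 6.21% as higher. The median log2 fold change of the list was -0.32, against -0.06 over all genes tested. Ccl2, a chemokine that attracts monocytes, had 4.53 and 4.99 with Venus and 3.17 and 4.03 with OASIS, and fell by 1.16 on the log2 scale (SE 0.34, limma adjusted p = 0.0696). Ccl5 fell by 1.95 (limma adjusted p = 0.0215), from 2.05 and 2.23 to -0.28 and 0.66. Cxcl10 fell by 1.53 (limma adjusted p = 0.0312), from 3.59 and 3.96 to 1.84 and 2.65. For these 3 chemokine genes, OASIS replicate 1 was the lower of the OASIS arrays by more than 0.80 log2 units. Icam1, an adhesion molecule, was tested through the Venus arrays. It was not called well above background with OASIS and has only a bound, at least 1.48-fold lower, short of the 2-fold limit. Among the 24 genes measured on all 4 arrays, 4 passed, 3 lower and 1 higher, where 994 of all 15446 genes so measured passed. Sod2, a mitochondrial antioxidant enzyme, rose by 1.0 on the log2 scale (limma adjusted p = 0.0178), just at the 2-fold limit. No gene of the list passed as higher under median scaling, with the authors' scaled values, after normexp background correction, with outlier spots kept, with the methods' t-test, without Venus replicate 1 or without OASIS replicate 2. Il6 and Tnf, both classical targets, had log2 fold changes of -0.60 and 0.10 that did not pass (limma adjusted p = 0.230 and 0.482). The count of 5 was 3 without Venus replicate 1, 2 without Venus replicate 2 and 8 without OASIS replicate 2.

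Of 10 genes of the interferon response, 8 fell, where 1.85% of all genes did, and none rose. The median log2 fold change was -2.01, against -0.06 over all genes tested. The genes that fell were Ifnb1, the regulator Irf7, and the interferon-induced genes Ifit1, Ifit2, Ifit3, Isg15, Mx1 and Usp18. Ifit1, which encodes a protein that binds viral RNA, had 2.69 and 3.17 with Venus and -0.41 and 1.26 with OASIS, a log2 fold change of -2.50 (SE 0.58, limma adjusted p = 0.0432). Irf7, a transcription factor that amplifies the interferon response, had 4.47 and 5.02 with Venus and 1.99 and 3.61 with OASIS, a log2 fold change of -1.94 (SE 0.57, limma adjusted p = 0.0724). In both, OASIS replicate 1 was far below replicate 2. By their brightest probes, Rsad2 and Oasl1 did not pass (log2 fold changes -1.75 and -0.72, limma adjusted p = 0.125 and 0.202), while the other probe of Rsad2 did (log2 fold change -2.65, limma adjusted p = 0.00774). Ifnb1 was tested through the Venus arrays, and Mx1 was well above background on 1 OASIS array. Among the 8 genes measured on all 4 arrays, 6 fell, where 994 of all 15446 genes so measured passed in either direction. Ifnb1, which encodes interferon-beta, had -4.21 and -3.08 with Venus and -6.24 and -6.83 with OASIS, and was at least 5.64-fold lower, since neither OASIS array measured it well above background. Its spot carries the mark for an uneven or outlying background on all 4 arrays. Without marked spots Ifnb1 could not be tested and 6 of 9 genes fell. The 8 genes became 1 without Venus replicate 1 and 1 without Venus replicate 2. These falls stood beside the rise of Ticam1 in the same samples, and whether they are connected was not tested.

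The list of further kidney injury genes had 21 of 26 members tested, of which 3 passed the threshold, 2 higher and 1 lower. Over all genes tested, 8.06% passed, 6.21% as higher and 1.85% as lower. Rbp4 was tested through the OASIS arrays, and among the 19 genes measured on all 4 arrays 2 passed, 1 higher and 1 lower. Of all 15446 genes so measured, 994 passed. Krt20, a keratin of injured tubular cells, rose from -0.18 and 0.09 to 3.40 and 3.18, a log2 fold change of 3.33 (SE 0.15, limma adjusted p = 0.00212). Rbp4, a retinol carrier measured in urine as a sign of tubular dysfunction, was at least 38.4-fold higher. Cd44 fell by 1.13 by its brightest probe (limma adjusted p = 0.00832), while its other probes gave 0.17 and -0.29. Krt18 was not well above background with Venus and, at least 1.03-fold higher with OASIS, did not pass (limma adjusted p = 0.168). The median of the list was -0.06, the same to this precision as over all genes tested. Of 8 proximal tubule markers, 7 were tested and 1 passed, where 8.06% of all genes did. This was Lrp2, the gene of megalin, an uptake receptor of the proximal tubule that also takes up the Lcn2 protein. It rose by its 2 brightest probes (log2 fold changes 1.62 and 1.68, limma adjusted p = 0.0148 and 0.0143), and its 3 other probes gave -0.10, 0.01 and -0.16.

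CD14, MD-2 and TLR4 are also abundant in macrophages, so macrophage markers were examined in the same RNA. Of 11 markers, 6 were measured on all 4 arrays, and Adgre1, Cd163, Mrc1 and Tyrobp were not well above background on any. None of the 7 tested passed the threshold in either direction with limma, where 8.06% of all genes did. The same 2 had an unadjusted p under 0.05 and an adjusted p under 0.1, the latter found for 36.8% of all genes. These were Csf1r, with a log2 fold change of 0.74 (limma adjusted p = 0.0720), and Itgam, with -0.51 (limma adjusted p = 0.0430). The median log2 fold change of the 7 tested was 0.08, that of all genes tested -0.06. The groups did not overlap for 1 gene that was higher and 1 that was lower, against 31.5% and 39.4% of all genes. The summed relative intensity of the 11 markers, in which bright probes weigh most, was 17.6 to 18.7 on the Venus arrays. It was 14.5 to 14.7 on the OASIS arrays, and its part in the lower Cd14 and Tlr4 values was not tested. Of 7 endothelial markers, Cdh5, Kdr, Tek, Tie1 and Emcn were not well above background on any array. Neither of the 2 tested passed the threshold with limma, where 8.06% of all genes did. For 1 of them, Ehd3, the unadjusted p was under 0.05.

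**Figure D5:**
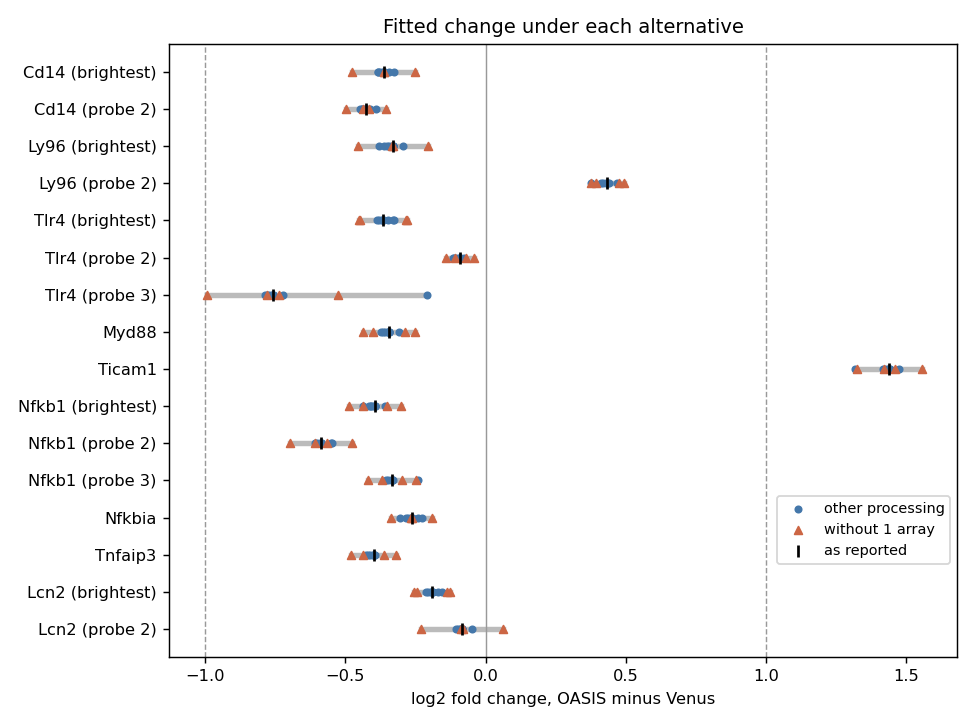
Log2 fold change of each tested probe as reported (black bar), under other processing (blue) and without 1 array (orange triangles), with the range in grey and dashed lines at 2-fold. Ticam1 stays beyond the 2-fold line throughout, the dimmest Tlr4 probe has the widest range, from -0.99 to -0.21, and the dimmer Lcn2 probe is the only one to cross 0.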

How the data were processed

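Total RNA of 2 Venus and 2 OASIS samples was hybridised to Agilent SurePrint arrays. The authors deposited spot intensities corrected for background by Agilent Feature Extraction 12.1.0.3, with marks for outlier spots, uneven background and spots well above background. They also deposited scaled values, which are the corrected intensity multiplied by a single factor for an array, with a detection score of 0, 1 or 2 and the gene symbols and bands used here. The array was annotated to mm9, another build than that of the RefSeq gene names used here (GRCm38), so that no coordinates are given. All 10 symbols matched a RefSeq gene, and the accession of 14 of the 17 probes was a RefSeq transcript of the same gene. No sequence was printed, since none was used here.

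Control spots and spots marked as outliers were left out, the 75th percentile of an array was subtracted from its log2 corrected intensities, and repeated spots were averaged. Probes were tested when well above background (on at least 0.5 of their spots) on both arrays of at least 1 group. limma 3.58.1 (R 4.3.3) fitted all 31598 such probes without covariates. Lists were read by the brightest tested probe of a gene, and no set was tested. For dim probes, a bound sets the mean of the brighter group against that of the other group, in which the lowest signal called well above background on an array replaces any value of the probe below it.

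The genes, lists and tests were chosen with earlier results of these data known. The plan named the lists of TLR4 signalling, NF-kB subunits and regulators, NF-kB targets and kidney injury genes. The lists of other Toll-like receptors and of the interferon response were not in it. Named from the lists were genes past the threshold, at most 8 a list, and some of the genes with a bound. Traf3, Tirap, Tlr2, Tlr3, Rela, Cyld, Ikbkg, Il6, Tnf, Rsad2, Oasl1, Csf1r, Itgam and Ehd3 were named after their values were seen. The alternatives were other normalizations, background corrections, filters, tests and thresholds, a block for replicate number, and omission of each array in turn. The fit was tested on simulated data. There was 1 slide, so that a block for slide could not be fitted.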

Additional observations from a re-analysis of the deposited data

How the results depend on the processing

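Under 16 alternatives, the log2 fold change of each probe of the 10 genes kept its direction wherever it could be tested, except that the dimmer Lcn2 probe was 0.061 without Venus replicate 1, within a range of -0.23 to 0.061 over the arrays left out. Leaving out 1 array gave 1 probe and 1 gene past the threshold each time, and between 1 and 8 probes under the adjusted p limit alone, against 9 on all arrays. With the methods' t-test 0 probes and 0 genes of the 10 passed, Ticam1 at a log2 fold change of 1.44 missing the limit on p, and 0 probes were under the limit on p alone. That count of 9 was also 4 with no filter on dim probes, 3 at an adjusted p under 0.05 and 5 when spots with a background mark were left out, the last chosen after seeing the data. With the replicate number as a block, 1 probe passed the threshold and 11 were under the limit on p alone. Same-numbered arrays deviated together with a correlation of 0.26 over probes, but the labels tie the number to nothing. The block changed no call at the threshold among the 10 genes. With it, 9 genes of the interferon list passed, against 8, and 1345 of all genes tested, against 1316.

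Of the lists, TLR4 signalling had 0 genes past the threshold after normexp background correction, with the mean of a gene's probes and with the methods' t-test, against 1, and 0 to 1 without 1 array. NF-kB subunits and regulators had 2 after quantile normalization and 0 with the mean of a gene's probes, against 1, and 1 to 2 without 1 array. NF-kB target genes had 2 with no filter, 0 with the methods' t-test and 3 at an adjusted p under 0.05, against 5, and 2 to 8 without 1 array. The interferon list had 1, 0 and 2 under the same 3 settings, against 8, and 1 to 10 without 1 array, and other Toll-like receptors had 1 to 2 without 1 array. Kidney injury genes had 3 to 4 without 1 array. The cause was not tested. With 1 array left in a group, its spread is taken from that of the other group. Havcr1 and the dimmest Tlr4 probe are limited by their signal over background.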

Other observations

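The deposited table names the KEGG pathways of a gene, and these lists, consulted after the values had been seen, are wider than the ones above. Of 81 tested genes in its Toll-like receptor pathway, 10 passed the threshold, 4 higher and 6 lower, with a median log2 fold change of -0.10. Of 77 tested genes in its NF-kappa B pathway, 7 passed, 5 higher and 2 lower, with a median of -0.07. Over all genes tested, 8.06% passed, 6.21% as higher and 1.85% as lower, with a median of -0.06.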
